A study of Homo sapiens with 10 samples.

Results

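The human genome holds stretches with the base composition of a CpG island that lie far from any known gene start, and it was asked how nucleosomes were placed on them in human induced pluripotent stem cells (hiPSCs). These stretches were defined as non-overlapping 500-bp windows of the autosomes of GRCh38, laid out from coordinate 0, with a GC content of at least 55%, a CpG observed/expected ratio of at least 0.65 and a centre at least 5000 bp from any transcript start of GENCODE release 44. The CpG observed/expected ratio is the number of CpG dinucleotides divided by the number that the C and G of the window would give in random order. The rule used the reference sequence and the annotation alone, and no measured value. Of 5511900 autosomal windows without unsequenced bases, 5562 (0.101%) met it, and they are called distal CpG-rich windows here. They are the minor part of the CpG-rich genome, since 35973 of the 41535 windows that passed both base composition thresholds lay under 5000 bp from a start. The set they were compared with, called CpG-poor windows, holds the 102828 distal windows with at least 55% GC and a CpG observed/expected ratio below 0.40.

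The cells were of the line PB010.5, a single hiPSC line whose cells all carry a fluorescent cell cycle reporter in the EEF2 locus, so that the values describe this line and not pluripotent cells in general. Unfixed permeabilised cells received MNase for 5 min, at a low amount of 0.5 or 1 U or a higher one of 3, 6 or 10 U, and each of the 5 digestions was read in a 150-bp and in a 50-bp paired-end run, which gave 10 samples with 1 sample in each group. The values come from a single deposited list of 12921589 nucleosome positions called on pooled libraries, of which 12465711 lie on autosomes, and a position is given as 140 bp with a score. As the list has neither values of single MNase concentrations nor replicates, no test was made, and the number of reads behind a score is unknown.

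In most of the human genome the cytosine of a CpG is methylated, and methylated cytosine mutates readily to thymine, so CpG has become rare. CpG islands have kept their CpG, mostly because they are unmethylated in the germline, and most of them hold promoters. Those away from annotated promoters lie within genes or between them, and some CpG-rich sequence is of another kind, such as tandem repeats near chromosome ends, recent transposable elements and coding exons rich in C and G at the third base of codons. GC-rich DNA bends readily around the histone octamer, while CpG islands at active promoters often hold a region depleted of nucleosomes. MNase cuts the linker DNA between nucleosomes, prefers bases A and T, and leaves the DNA wrapped around histones, so that a called position stands for a place where protected fragments accumulated.

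The difference between the sets can be read in the sequences. The 4 distal CpG-rich windows with the highest CpG observed/expected ratio were taken among those that hold a position, whose sampled words occur once in the reference and that overlap no untranslated region. The 140 bp of the position nearest the middle of each are shown with CpG in capitals, beside those of the CpG-poor window of the same chromosome nearest in GC content. CpG-rich 1 is chr6:148877692-148877831 in an intron of UST, a sulfotransferase gene, CpG-rich 2 is chr16:34803042-34803181 and CpG-rich 3 is chr17:26731192-26731331, both outside annotated genes, and CpG-rich 4 is chr7:6653652-6653791 in a coding exon of ZNF316, a zinc-finger gene. CpG-poor 1 is chr6:382842-382981 and CpG-poor 4 is chr7:391592-391731, both intergenic, CpG-poor 2 is chr16:840692-840831 in an intron of a long non-coding RNA gene, and CpG-poor 3 is chr17:7108762-7108901 at a coding exon of ASGR2, which encodes a subunit of the hepatic asialoglycoprotein receptor. All are given on the plus strand of GRCh38.
CpG-rich 1: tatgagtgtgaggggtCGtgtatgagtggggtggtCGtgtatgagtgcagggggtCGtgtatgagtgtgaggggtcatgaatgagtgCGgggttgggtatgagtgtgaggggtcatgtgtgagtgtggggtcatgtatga
CpG-poor 1: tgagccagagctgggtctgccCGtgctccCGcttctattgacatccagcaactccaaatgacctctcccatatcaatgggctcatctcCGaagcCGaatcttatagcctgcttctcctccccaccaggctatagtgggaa
CpG-rich 2: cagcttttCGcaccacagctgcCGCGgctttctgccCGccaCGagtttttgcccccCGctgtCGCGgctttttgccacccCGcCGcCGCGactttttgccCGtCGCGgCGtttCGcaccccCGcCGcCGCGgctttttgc
CpG-poor 2: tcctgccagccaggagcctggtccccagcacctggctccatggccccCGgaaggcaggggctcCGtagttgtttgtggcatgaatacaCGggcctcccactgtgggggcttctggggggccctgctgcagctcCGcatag
CpG-rich 3: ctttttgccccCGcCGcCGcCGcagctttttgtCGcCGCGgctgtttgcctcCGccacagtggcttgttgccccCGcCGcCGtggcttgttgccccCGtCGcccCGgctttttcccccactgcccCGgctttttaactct
CpG-poor 3: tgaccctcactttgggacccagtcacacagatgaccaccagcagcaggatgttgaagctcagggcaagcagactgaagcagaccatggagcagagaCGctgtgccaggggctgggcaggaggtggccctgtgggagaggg
CpG-rich 4: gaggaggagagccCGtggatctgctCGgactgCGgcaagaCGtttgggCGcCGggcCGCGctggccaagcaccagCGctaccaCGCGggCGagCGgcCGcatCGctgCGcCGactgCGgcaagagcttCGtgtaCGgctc
CpG-poor 4: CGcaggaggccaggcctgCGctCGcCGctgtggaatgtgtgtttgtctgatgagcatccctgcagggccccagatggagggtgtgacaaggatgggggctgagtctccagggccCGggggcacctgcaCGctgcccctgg
The CpG-rich positions held 4, 21, 15 and 20 CpG and the CpG-poor positions held 4, 4, 1 and 6. CpG-rich 1 shows a limit of the ratio, since a strand with few C passes the threshold with few CpG. Of the 5562 windows, 194 held under 20 CpG, and 155 of these were tandem repeats. The scores of the CpG-rich positions were 7.40, 12.3, 8.64 and 14.8, and those of the CpG-poor positions were 23.4, 19.7, 12.3 and 23.4. In each pair the CpG-rich position had the lower score, and the windows of the last pair differed in GC content (78% and 70.6%). The CpG-rich windows of these pairs had CpG observed/expected ratios of 1.34, 1.29, 1.24 and 1.18. All CpG-rich windows with a ratio of 1 or over had a mean score of 16.1, against 18.8 for those with 0.65 to 0.7. The pairs therefore show the extreme of the CpG-rich set and not its typical windows. A score of 14.8 was the median of the list and 38.2 marked its highest 1%.

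The CpG-rich windows are not of a single kind. Their GC content ranged from 55% to 87% with a median of 62.8%, their CpG observed/expected ratio had a median of 0.749, and they held a median of 36 CpG with quartiles of 30 and 45. The nearest transcript start lay at a median of 12771.5 bp. Chromosome 19, the most gene-dense autosome, held 6.60 windows per Mb (387 windows) and chromosome 3 the fewest, 0.827 per Mb. Most windows stood alone, as 3232 (58.1%) had no CpG-rich window on either side, whereas 33.1% of CpG-poor windows weighted to the same GC stood alone. By place, 45.4% were intergenic, 36.0% intronic, 15.0% on a coding exon and 3.52% on another exon. Coding exons held 13.5% of those with a GC match among the CpG-poor windows, against 9.18% of the CpG-poor windows weighted to the same GC.

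Many of them are also repeated sequence. A window was called a tandem repeat where it matched itself at 60% of its bases or more after a shift of 5 to 150 bases. The others were sorted by how often their most frequent of 3 sampled 32-base words occurs in the reference, on either strand. By this measure 2930 (52.7%) were single copy, 601 (10.8%) had 2 to 10 copies, 1091 (19.6%) had over 10 copies and 940 (16.9%) were tandem repeats. Single-copy sequence made up 51.3% of the CpG-rich windows with a GC match and 76.5% of the GC-matched CpG-poor windows, and sequence of over 10 copies made up 21.2% and 5.56%. Of the 1245 CpG-rich windows within 2 Mb of a chromosome end, 38.1% were tandem repeats, against 10.8% of the 4317 farther in. The shift at which the tandem repeats matched themselves best had a median of 47 bp with quartiles of 29 and 82 bp. This shift can be a multiple of the repeat unit, and units over 150 bp were not searched. The following stretch shows one with exact repeats, in an intron of RASA3 (a GTPase-activating protein gene) at chr13:114085701-114085840, with a unit of 54 bp and CpG in capitals. The window around it, chr13:114085501-114086000, held no midpoint.
Tandem repeat: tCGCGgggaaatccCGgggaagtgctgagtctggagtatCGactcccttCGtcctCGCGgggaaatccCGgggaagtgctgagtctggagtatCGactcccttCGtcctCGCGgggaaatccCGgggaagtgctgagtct

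Nucleosome positions were fewer on the CpG-rich windows than on CpG-poor windows of equal GC. A position was assigned to a window by its midpoint, and CpG-poor windows were weighted to the GC of the CpG-rich windows in steps of 1 percentage point, which left out 509 CpG-rich windows of 73% GC or over that had no counterpart. The density was 3.67 midpoints per kb in CpG-rich and 5.03 in CpG-poor windows, a log2 ratio of -0.45 ± 0.14 (SD over 22 autosomes). It was lower on 22 of 22 autosomes, where the ratio ran from -0.83 to -0.32. The SD over autosomes stands in for an error here and describes the spread along the genome, not that between experiments. The positions present also had a lower score, with a mean of 18.8 against 22.4 and a difference of -3.58 ± 0.80 (SD over 22 autosomes), again on 22 of 22 autosomes. Of all 5562 windows, 1351 (24.3%, 95% Wilson interval 23.2% to 25.4%) held no midpoint, where the share over all 4063531 distal windows was 8.32%. A position in the highest 1% of scores lay in 338 of them (6.08%, 5.48% to 6.74%), where the share over all distal windows was 1.76%. GC-matched CpG-poor windows held such a position in 13.1% of cases, against 6.04% of the CpG-rich windows with a match. So CpG-rich windows had more high-scoring positions than an average distal window and fewer than CpG-poor windows of equal GC. Intervals cover counting error only.

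Most of the windows without a midpoint were repeated sequence. No midpoint was found in 81 of 2930 single-copy windows (2.76%, 2.23% to 3.42%), in 327 of 601 with 2 to 10 copies (54.4%, 50.4% to 58.4%), in 330 of 1091 with over 10 copies (30.2%, 27.6% to 33.0%) and in 613 of 940 tandem repeats (65.2%, 62.1% to 68.2%). The single-copy share is below the 8.32% of all distal windows, and the other 3 shares are above it. That 8.32% covers windows of every copy class and GC content. Among single-copy windows of equal GC, no midpoint was found in 3.23% of CpG-rich and 0.662% of CpG-poor windows. Within each class the CpG-rich windows had the lower density. Tandem repeats had 1.12 midpoints per kb against 1.96 in CpG-poor tandem repeats of equal GC, a log2 ratio of -0.80 ± 0.77 (SD over 15 autosomes with enough windows), and it was lower on 13 of the 15. Windows with 2 to 10 copies had 1.90 against 3.08 midpoints per kb and were lower on 13 of 14 autosomes, and windows with over 10 copies had 2.90 against 3.94 and were lower on 21 of 22. The spread between autosomes in the first 2 of these classes is nearly as large as the difference. How the authors treated reads that map to several places is not given in the sources used here, and the part of repeated copies in the windows without a midpoint was not tested.

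**Figure D1:**
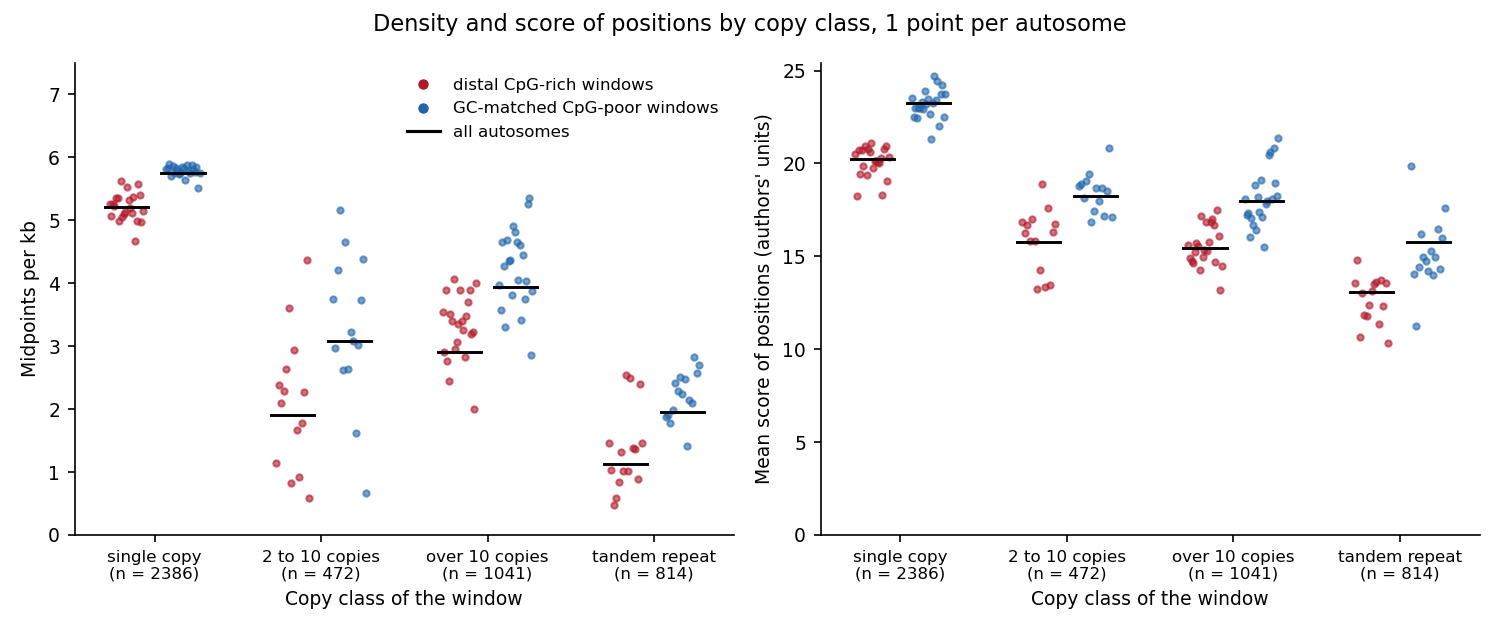
Midpoints per kb (left) and mean score of positions (right) in distal CpG-rich windows and GC-matched CpG-poor windows by copy class, with 1 point per autosome with enough windows and a line for all autosomes together; n is the number of CpG-rich windows with a GC match. Single-copy windows sit highest in both panels, and the CpG-rich lines lie below the CpG-poor lines in each class, by the least for the density of single-copy windows (5.21 against 5.75 per kb).

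**Figure D2:**
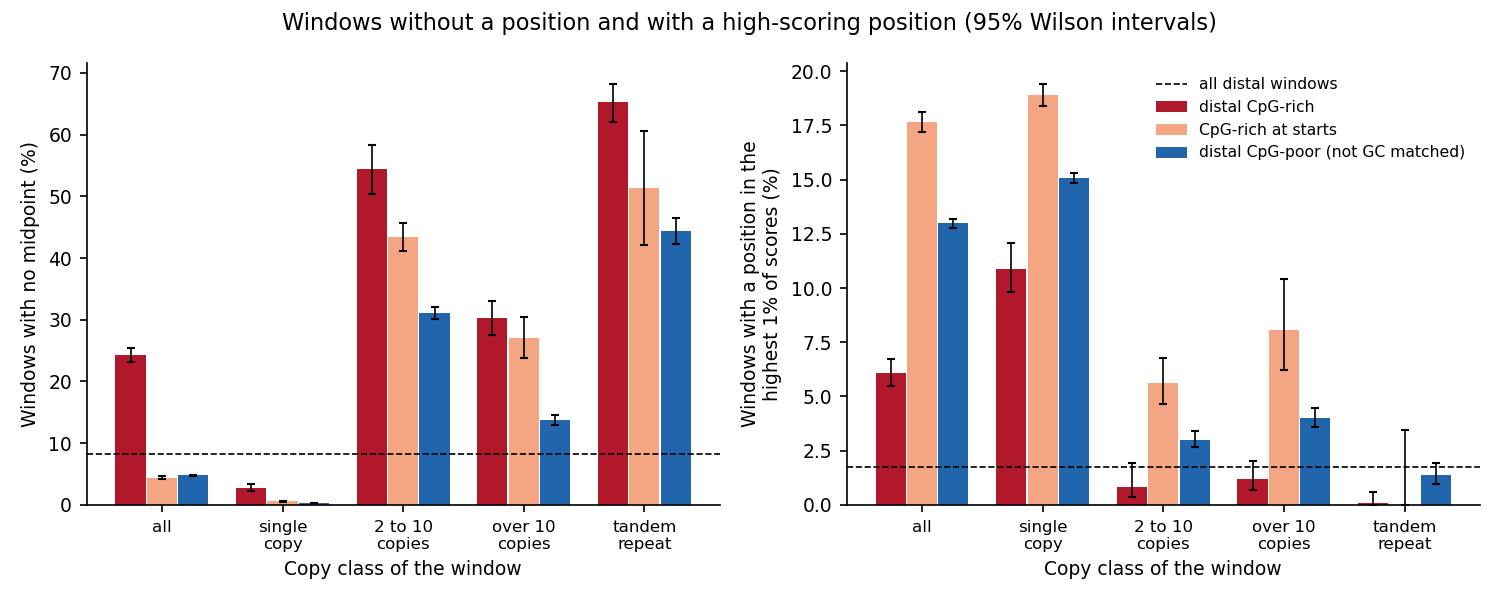
Share of windows with no midpoint (left) and with a position in the highest 1% of scores (right) by copy class, for distal CpG-rich windows, CpG-rich windows within 500 bp of a start and distal CpG-poor windows, with 95% Wilson intervals; the dashed line is the share over all distal windows. No midpoint was found in 65.2% of tandem repeats and 2.76% of single-copy CpG-rich windows, and high-scoring positions were found in 10.9% of single-copy CpG-rich windows, below both other sets.

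On single-copy sequence the difference in density was small and the difference in score remained. The 2386 single-copy CpG-rich windows with a GC match had 5.21 midpoints per kb and their CpG-poor counterparts 5.75, a log2 ratio of -0.14 ± 0.065 (SD over 22 autosomes). This leaves out the rest of the 2930 single-copy windows, as too few single-copy CpG-poor windows had their GC. On single autosomes the CpG-rich density ran from 4.68 on chromosome 17 to 5.625 on chromosome 8 and the CpG-poor density from 5.51 on chromosome 21 to 5.89 on chromosome 3. The ranges overlapped, yet the CpG-rich windows were lower on 22 of 22 autosomes. The mean score was 20.2 against 23.2, a difference of -3.01 ± 0.76 (SD over 22 autosomes), and it too was lower on 22 of 22. Here the ranges over autosomes did not overlap, with 18.3 to 21.1 in CpG-rich and 21.3 to 24.7 in CpG-poor windows. The GC of the surrounding 3000 bp was 54.7% against 57.0%. With windows matched on that GC instead, the log2 ratio of density was -0.16 and the difference in score -2.88. Leaving out the windows with unsequenced bases within 1 Mb gave a log2 ratio of density of -0.11 and a difference in score of -2.88.

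Counted window by window, a single-copy CpG-rich window most often held 3 midpoints (47.2%), as did a CpG-poor window (52.6%). The shift was from 4 midpoints, in 11.7% of CpG-rich and 18.4% of CpG-poor windows, to 2 midpoints, in 32.8% and 25.3%. No midpoint was found in 3.23% and 0.662%. A position in the highest 1% of scores was found in 10.8% and 16.7%, and the CpG-rich share was lower on 21 of 22 autosomes. Of all 2930 single-copy windows, 319 (10.9%, 9.81% to 12.1%) held one, against 1.76% of all distal windows. The 7662 positions in them had a median score of 18.5 with quartiles of 13.6 and 24.7, above the median of 14.8 over all autosomal positions. The 501 positions on tandem repeats had a median of 12.3, below it.

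At a fixed GC content below 65%, windows with more CpG had fewer and lower-scoring positions almost class by class, with no break at the thresholds of the rule. Among single-copy distal windows of 55% to 60% GC, the density was 5.89 per kb ± 0.059 (SD over 22 autosomes) for a CpG observed/expected ratio below 0.2, 5.75 ± 0.060 from 0.3 to 0.4, 5.59 ± 0.16 from 0.5 to 0.6 and 5.21 ± 0.48 from 0.7 to 0.8, with the SD over 20 autosomes in the last class. The mean score over the same classes was 22.8 ± 0.77, 21.9 ± 0.58, 20.5 ± 0.55 and 19.7 ± 1.37. In windows of 60% to 65% GC the score was 24.0 ± 1.15 in the same first class and 20.8 ± 1.91 in the last, and in windows of 65% to 70% GC it was 24.4 ± 1.58 and 21.0 ± 1.37. The density at 65% to 70% GC did not follow this order throughout, with 5.53 ± 0.63 below 0.2, 5.76 ± 0.42 from 0.3 to 0.4 and 5.43 ± 0.33 from 0.7 to 0.8. Windows of 70% GC and over showed no such order, with a density of 5.07 ± 0.61 and a score of 19.5 ± 2.14 from 0.3 to 0.4 (4 autosomes) and 5.41 ± 0.56 and 20.3 ± 2.24 from 0.7 to 0.8 (19 autosomes). Just inside the CpG threshold, 368 windows of every copy class with a ratio of 0.65 to 0.66 had 3.95 midpoints per kb, and just outside it 463 distal windows with 0.64 to 0.65 had 3.94.

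**Figure D3:**
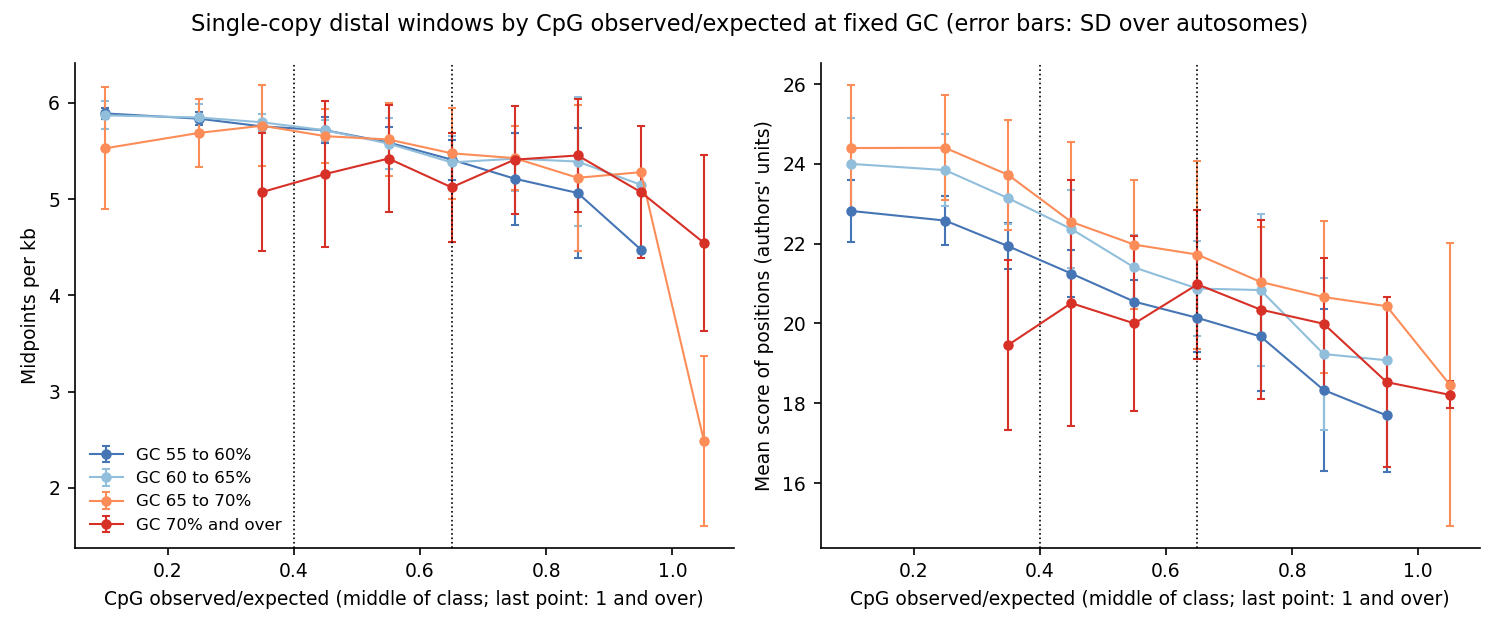
Midpoints per kb (left) and mean score of positions (right) of single-copy distal windows against the CpG observed/expected ratio, in 4 classes of GC content, with the SD over autosomes as error bars; dotted lines mark 0.40 and 0.65, and a point without a bar had too few autosomes for an SD. At 55% to 60% GC the score is 22.8 in the lowest and 17.7 in the highest class, and the point at 65% to 70% GC with a ratio of 1 and over stands apart with 2.49 midpoints per kb.

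Windows with a CpG observed/expected ratio of 1 or over were the emptiest of the classes of this ratio. The 194 windows with under 20 CpG also had few midpoints, 1.63 per kb. Of the 517 CpG-rich windows with a ratio of 1 or over, 321 (62.1%) held no midpoint and 49.7% were tandem repeats, whereas of the 1598 with a ratio of 0.65 to 0.7, 273 (17.1%) held none. The 159 single-copy windows with a ratio of 1 or over had 3.58 midpoints per kb and a mean score of 17.8, and 47 of them (29.6%) held no midpoint. The 800 single-copy windows with a ratio of 0.65 to 0.7 had 5.38 midpoints per kb and a mean score of 20.7, and 6 of them (0.75%) held none. Of the 81 single-copy windows without a midpoint, 55 also had none within 1500 bp, 70 were intergenic and 65 had unsequenced bases of the reference within 1 Mb, a count that includes chromosome ends. Of the 603 single-copy windows with unsequenced bases so near, 10.8% held no midpoint, against 16 of the other 2327 (0.688%). Without windows so near to unsequenced bases, the shares with no midpoint were 0.743% of single-copy CpG-rich and 0.388% of GC-matched CpG-poor windows. The widest distances between positions across a single-copy window, named for this value, were 221490 bp around chr17:26766001-26767000 and 20600 bp around chr1:125087001-125088000, beside the centromere of chromosome 1. The best self-match after a shift was 0.45 of the bases or over in 51 of the 81 single-copy windows without a midpoint. All were below the threshold for a tandem repeat. In the windows at these widest distances it was 0.48 to 0.54. The sampled words of single-copy windows occur once in this assembly, but such windows can still hold diverged repeats. The part of such repeats was not tested, nor whether the sequence has further copies in the gaps of the assembly. It was also not determined which of these windows lie in the problematic regions that the authors gave their workflow as a blacklist.

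The lower density reached beyond the window itself. In bins of 50 bp from the window centre, single-copy CpG-rich windows had 5.46 midpoints per kb at 0 to 50 bp, 5.31 at 500 to 550 bp and 5.28 at 1450 to 1500 bp, while their GC went from 64.2% to 50.0%. The CpG-poor windows had 5.75, 5.52 and 5.41 in the same bins, while their GC went from 63.0% to 54.4%. Single bins scattered, with 5.00 in CpG-rich against 5.68 in CpG-poor windows at 50 to 100 bp. At 1400 to 1450 bp the values were 4.86 against 5.51. The score of CpG-rich windows went from 20.5 to 18.9 across the bins and that of CpG-poor windows from 23.2 to 20.6. Over the whole 3000 bp the density was 5.16 against 5.55 per kb, a log2 ratio of -0.11 ± 0.057 (SD over 22 autosomes), lower on 21 of 22 autosomes. The spacing of positions was compared as the distance between neighbouring midpoints. Midpoints that followed each other within 1500 bp of the centre were 170 bp apart at the median in both single-copy sets, with a difference of 0 bp ± 5.04 (SD over 22 autosomes). Over all copy classes the medians were 175 and 170 bp, a difference of 5 bp ± 4.73. With the higher-scoring positions only, those from the list's median score of 14.8 upwards, the medians over all copy classes were 210 and 190 bp, a difference of 20 bp ± 6.26.

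**Figure D4:**
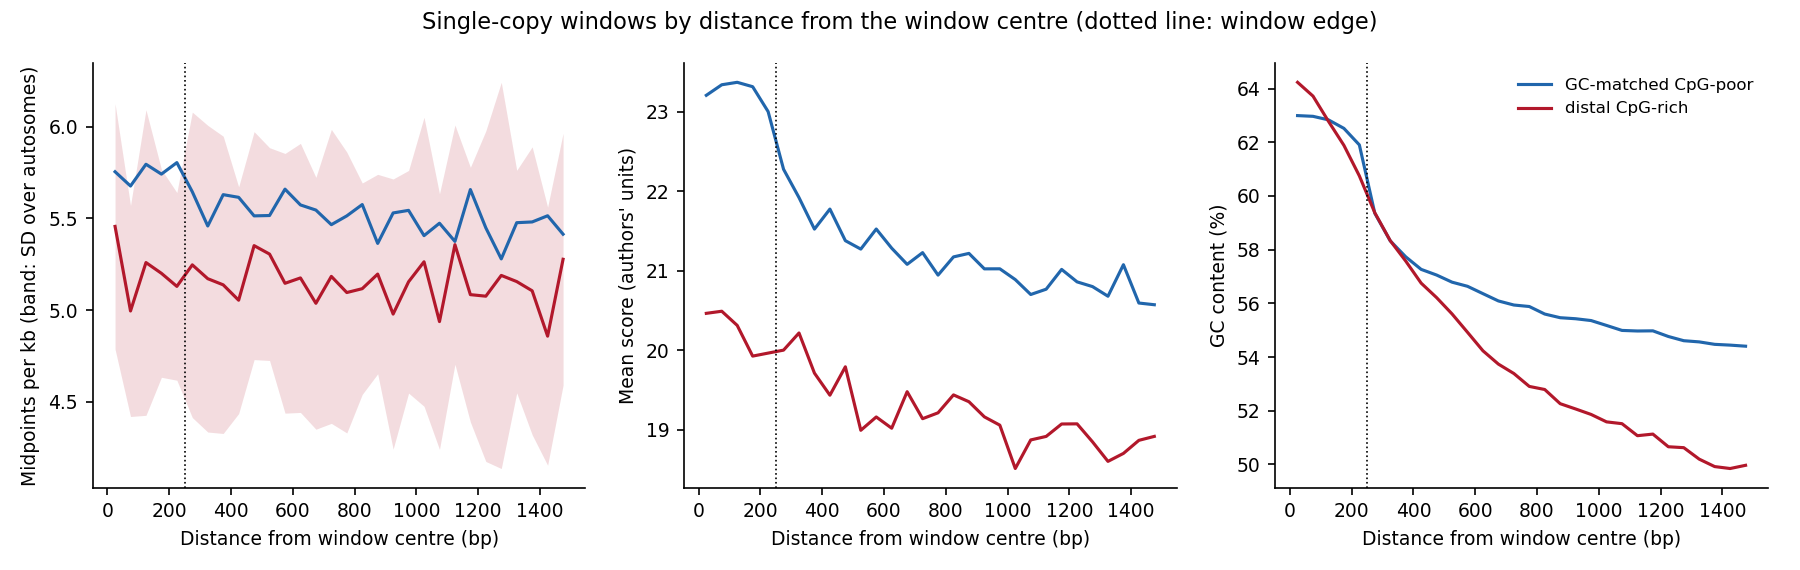
Midpoints per kb (left), mean score (middle) and GC content (right) by distance from the window centre in bins of 50 bp, both sides folded, for single-copy CpG-rich windows and GC-matched CpG-poor windows; the band is the SD of the CpG-rich density over autosomes and the dotted line the edge of the window. The CpG-rich density is 5.46 per kb at the centre and 5.28 at the far end, and varies between bins down to 4.86 at 1400 to 1450 bp. The CpG-rich score lies below the CpG-poor score in the first and last bin (20.5 against 23.2 and 18.9 against 20.6).

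Within single-copy CpG-rich windows, positions lay on the more CpG-rich and GC-rich bases. In the 2849 windows with a midpoint, positions covered 71.5% of the bases. Covered bases held 8.22 CpG per 100 bp and uncovered bases 7.80, a difference of 0.42 ± 0.32 (SD over 22 autosomes), and the covered share was lower on 1 autosome. The GC content was 65.4% and 63.3%, a difference of 2.09 ± 0.64, with the covered bases lower on 0 autosomes. In single-copy CpG-poor windows 77.0% of the bases were covered, with 59.0% GC in covered and 57.0% in uncovered bases. These held 1.93 and 1.89 CpG per 100 bp. In single-copy CpG-rich windows within 500 bp of a start the GC was 68.5% and 67.4%. The CpG per 100 bp there was 9.77 and 9.68, a difference of 0.088 ± 0.17 (SD over autosomes), within the spread. The direction was thus the same in each set. The CpG per 100 bp was not adjusted for the higher GC of the covered bases. It is therefore a different measure from the CpG observed/expected ratio compared between windows, and these measures cannot be set against each other.

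Against CpG-rich windows at transcript starts, the density of distal windows was lower over all copy classes, differed by less than its spread on single-copy sequence, and the scores were lower in both cases. The set taken for this holds 26285 windows with the same base composition whose centre lies within 500 bp of a transcript start, weighted to the GC of the distal windows. Over all copy classes the distal windows had 3.69 midpoints per kb and the windows at starts 4.85, a log2 ratio of -0.39 ± 0.18 (SD over 22 autosomes), lower on 22 of 22, with no midpoint in 24.3% and 4.69%, and the mean score was 18.9 against 21.4. On single-copy sequence the distal windows had 5.23 midpoints per kb and the windows at starts 5.13, a log2 ratio of 0.029 ± 0.060 (SD over 22 autosomes), lower on 7 of 22 autosomes, so that the difference was within the spread. The mean score was 20.1 against 21.6, a difference of -1.50 ± 0.76, lower on 22 of 22 autosomes. A position in the highest 1% of scores was found in 10.9% of distal windows and 20.4% of windows at starts, also lower on 22 of 22. Away from the centre the order was the opposite. At 1450 to 1500 bp the mean score was 18.9 around the single-copy distal windows with a CpG-poor match, at 50.0% GC. Around windows at starts weighted to the GC of those distal windows it was 17.0, at 47.0% GC.

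The difference in density varied with the place in the gene, and the score was lower in each place. Single-copy CpG-rich windows on coding exons (742, of which 484 had a GC match on coding exons) had 5.76 midpoints per kb against 5.83 in CpG-poor windows on coding exons, a log2 ratio of -0.016 ± 0.13 (SD over 15 autosomes), within the spread. Their mean score was 19.9 against 23.8, a difference of -3.92 ± 1.94, lower on 14 of 15 autosomes. In introns the density was 5.29 against 5.80 (log2 ratio -0.13 ± 0.095, lower on 19 of 21 autosomes) and the score 20.0 against 23.5. Between genes the density was 4.91 against 5.71 (log2 ratio -0.22 ± 0.11, lower on 22 of 22) and the score 20.4 against 22.9. The shares of empty windows, CpG-rich first, were 6.06% and 1.04% between genes. They were 1.32% and 0.468% in introns and 0.207% and 0.167% on coding exons. Windows with unsequenced bases within 1 Mb were not left out of the classes by place, distance and run length. Single-copy windows 5 to 10 kb from the nearest start had 5.37 midpoints per kb against 5.78, and those 50 kb or farther had 4.41 against 5.72, with 15.0% and 1.09% of windows empty in that farthest class. The spread in the farthest class was wide, with a log2 ratio of -0.38 ± 0.33 (SD over 5 autosomes). Single-copy windows in runs of 3 or more adjacent CpG-rich windows had 4.65 midpoints per kb against 5.71, a log2 ratio of -0.30 ± 0.25 (SD over 12 autosomes), lower on 11 of 12, with 13.5% and 0.960% of windows empty. Those that stood alone had 5.31 against 5.76, a log2 ratio of -0.12 ± 0.070 (SD over 22 autosomes), with 1.52% and 0.617% empty.

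Each of 4 words that hold a CpG was more frequent in these windows than in CpG-poor windows of equal GC. Both sets were chosen by their CpG, so an excess of such words is built into the rule and is not a separate result. The density that went with the words differed from word to word. The CpG pair CGCG stood in 4687 of the 5562 windows (84.3%), against 20.5% of GC-matched CpG-poor and 5.68% of all distal windows. GGGCGG, the core of the binding site of SP1 and related factors, stood in 57.3% on either strand, against 34.3% and 4.86%. TGACGTCA, the site of CREB and ATF factors, stood in 35 windows (0.629%), against 0.211% and 0.149%. CACGTG, the E-box bound by MYC, USF and related factors, stood in 11.2%, against 10.2% and 4.27%. Among the CpG-rich windows with a GC match the shares of these 4 words were 83.2%, 54.4%, 0.633% and 11.3%. A potential G-quadruplex was found in 31.1% and, unlike the words that hold CpG, less often in CpG-rich than in GC-matched CpG-poor windows (27.9% of those with a match, against 39.4%). Among single-copy CpG-rich windows the density was 5.22 per kb with GGGCGG and 5.26 without, 5.36 with CACGTG and 5.21 without, 5.26 with CGCG and 4.79 without, and 4.65 with TGACGTCA (31 windows) and 5.24 without. Over all copy classes it was 3.99 with CGCG and 2.08 without, and 4.21 with GGGCGG and 3.00 without. A match describes the letters of a window and not a bound site. Both strands were searched, each of these 4 words holds a CpG, and matches of different words may overlap.

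Around matches to the CTCF consensus, the recognition motif of the insulator protein, the positions were arrayed. The consensus was matched in 59 CpG-rich windows (1.06%, against 0.154% of all distal windows), in 766 CpG-poor windows and in 5418 other distal windows. Between windows of equal GC the shares were 0.9895% of CpG-rich and 0.881% of CpG-poor windows. Around the matches in CpG-rich windows there were 3.73 midpoints per kb from 0 to 50 bp (22 midpoints) and 1.36 from 50 to 100 bp (8 midpoints). The density was 7.71 from 100 to 200 bp (91 midpoints) and 1.86 from 200 to 300 bp (22 midpoints). It was 7.37 from 300 to 400 bp (87 midpoints) and 4.95 from 1000 to 1500 bp. The mean score was 28.8 from 100 to 200 bp and 18.8 from 1000 to 1500 bp. Around the matches in other distal windows the densities in the same bins up to 400 bp were 3.62, 2.21, 7.32, 2.32 and 6.70 per kb. The score there from 100 to 200 bp was 22.2. In CpG-poor windows the densities were 4.74, 2.92, 7.02, 3.45 and 6.84 per kb, and the score from 100 to 200 bp was 28.7. The order of sparse and dense bins was the same in the 3 sets, and the counts in CpG-rich windows are small.

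CpG-rich windows next to each other formed 4124 runs, of which 282 had 3 or more windows. The 8 longest runs on 21 of the autosomes whose sampled words all occur once are described because they show the positions over a longer stretch. The longest, chr19:1465001-1471000, lies in APC2 (plus strand), which encodes a relative of the APC tumour suppressor that acts in the Wnt pathway, and within C19orf25 on the other strand. Of its 12 windows 11 overlap a coding exon of APC2, and they held 34 positions, 5.67 per kb, with midpoints 170 bp apart at the median and never more than 380 bp apart. Their scores ran from 6.17 to 41.9 with a mean of 23.3, so that high and low scores lay within the same 6000 bp of 73.1% GC. The strongest position, chr19:1468872-1469011, and the weakest, chr19:1469922-1470061, are shown on the plus strand with CpG in capitals to compare their CpG, which numbered 11 in the first and 14 in the second.
APC2 strongest: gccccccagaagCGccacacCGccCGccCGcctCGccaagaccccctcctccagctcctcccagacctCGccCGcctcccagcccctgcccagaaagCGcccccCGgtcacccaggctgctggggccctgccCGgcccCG
APC2 weakest: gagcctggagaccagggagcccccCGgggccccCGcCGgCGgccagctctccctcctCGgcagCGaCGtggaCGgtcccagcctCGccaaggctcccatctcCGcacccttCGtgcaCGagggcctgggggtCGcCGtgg
The other runs had lower scores than the APC2 run. The run in ZNF316 (chr7:6652501-6655500, 6 windows, plus strand, coding exon) held 17 positions with a mean score of 15.0, and an intergenic run (chr4:8891501-8894500, 6 windows) held 19 with a mean of 16.8. The run on a coding exon of CBARP (chr19:1227501-1230000, minus strand), a regulator of calcium channels, held 13 with a mean of 14.7. The run on a coding exon of BCL11B (chr14:99174001-99176500, minus strand), a zinc-finger transcription factor of T cells and neurons, held 11 with a mean of 17.8 and had the widest distance between midpoints of these runs, 490 bp. A run on an exon of a gene without a symbol, ENSG00000259166 (chr14:101457001-101459500), held 13 with a mean of 17.4, and a run on an exon of RAI1 (chr17:17722501-17725000), a transcriptional regulator, held 16 with a mean of 19.1. The intergenic run chr1:125085501-125088000, with a CpG observed/expected ratio of 1.15, held 0 positions and lay 3505227 bp from the nearest start. The 7 runs with positions had 4.40 to 6.40 midpoints per kb.

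**Figure D5:**
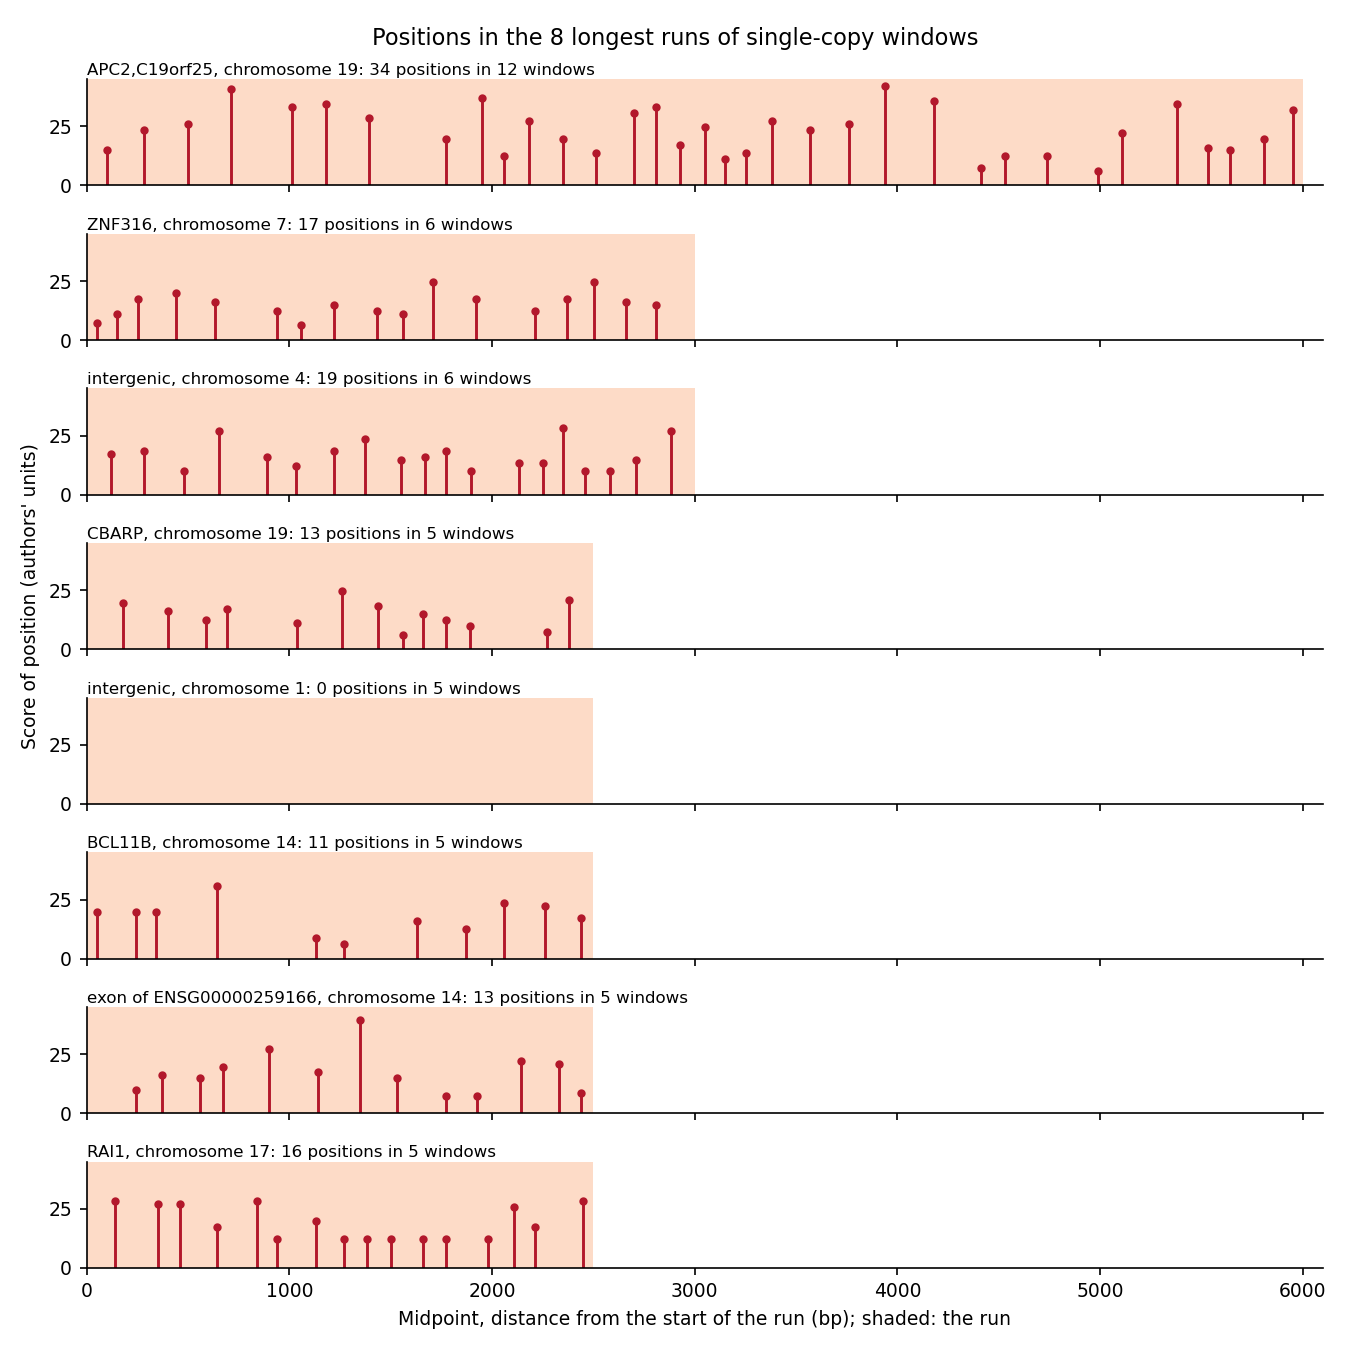
Score of every position (stems) against the distance of its midpoint from the start of the run, for the 8 longest runs of CpG-rich windows whose sampled words occur once; shading marks the run. The APC2 run holds 34 positions with scores of 6.17 to 41.9, and the intergenic run on chromosome 1 holds none.

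The longest runs of any copy class were mostly empty. The longest, 18 windows in EPPK1 on chromosome 8, held 3 positions, and its most frequent sampled word occurs 9 times in the reference. A pair of runs of 10 windows each, chr1:161446501-161451500 and chr1:161454001-161459000, held 0 positions, with words that occur 8 and 9 times. A run of 17 windows on chromosome 15 held 1 position, with a word that occurs 62 times.

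Of the protein-coding genes of the autosomes, 1325 spanned at least 1 CpG-rich window, 838 spanned just 1 and 58 spanned 5 or more. The genes with the most were PTPRN2, which encodes a phosphatase-like protein of secretory vesicles, with 71, and DLGAP2, which encodes a scaffold protein of the postsynaptic density, with 65, both near the end of a chromosome. In PTPRN2 38 of the windows were tandem repeats, 23 held no midpoint and the density was 2.93 per kb, against 5.09 over the 353 CpG-poor windows of the same gene. In DLGAP2 49 were tandem repeats, 37 held no midpoint and the density was 1.66 against 5.14 per kb. These comparisons within a gene were matched neither for GC nor for copy class. RASA3, DIP2C and RPH3AL had 20, 20 and 17 windows, of which 15, 14 and 14 were tandem repeats, with densities of 1.50, 1.90 and 0.706 per kb. EXD3 had 12 windows, 6 of them tandem repeats, with 2.67 midpoints per kb.

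The plakin genes EPPK1 and PLEC differed in both copies and positions. Plakins are large proteins that link intermediate filaments to the cell surface, and both genes had 19 CpG-rich windows, all of them on coding exons. In PLEC all 19 were single copy, 0 were without a midpoint, and there were 63 positions, 6.63 per kb with a mean score of 17.1. In EPPK1, whose exon is built of near-identical repeats, 1 was single copy, 16 were without a midpoint, and there were 6 positions, 0.632 per kb with a mean score of 16.2. The 12 windows of APC2, all single copy, had 5.67 midpoints per kb and the highest mean score of the 10 genes, 23.3.

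The highest scores in single-copy CpG-rich windows, named for this value, were 72.8 at chr19:40488232-40488371 in an intron of SPTBN4, which encodes a spectrin of neurons, and 72.8 at chr1:16725232-16725371 outside annotated genes. They were followed by 66.6 at chr22:41957912-41958051 in SMIM45 and 65.4 at chr19:55517242-55517381 on a coding exon of SSC5D. They lay at percentiles 99.9917 to 99.9968 of the autosomal positions.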

How the data were processed

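Nucleosome positions were taken from 1 deposited list, which the series of 10 samples shares. According to the study's methods and the submitters' processing notes, the authors trimmed reads with Trimmomatic 0.40, and ran the nucMACC workflow with GRCh38 as reference and a blacklist of problematic regions as part of its settings. The score of each deposited position is a signal that is never negative, in multiples of a step of 1.23, and its scaling and the program within the workflow that called positions are not given in the sources used here. The methods state that the 50-bp runs were taken no further because their nucleosome profiling step failed, without saying which runs went into this list. The list was used without a filter, and 0 columns of other samples were left out. It gives no read totals, so no sampling error of a score is given.

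GC content, CpG and copies of words were read from the hg38 reference, and the midpoint of a position was its start plus 70 bp. Transcript starts came from GENCODE release 44, where the study used release 48. CpG-poor windows were weighted to the GC of the CpG-rich windows over bins with at least 20 CpG-poor windows (5 on a single autosome). Values were recomputed on each autosome for the SD, and no test was made because there are no replicates. The windows, lists and comparisons were chosen with earlier results of these data known. Named genes were the 10 protein-coding genes that span the most windows, and single windows named for a value are said to be so. Chromosome 8 was left out of the 8 longest runs whose sampled words occur once and of the printed sequences. These runs were not filtered for tandem repeats, and the highest self-match in the ZNF316 run was 0.601. The weighting was tested on simulated windows with known ratios. Python 3.11.15, NumPy 2.4.6, pandas 2.3.3, SciPy 1.17.1, Numba 0.67.0 and matplotlib 3.10.9 were used.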

Additional observations from a re-analysis of the deposited data

How the results depend on the processing

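Across the 56 recomputed values no direction was reversed, 36 stayed within the SD over autosomes of the reported value and 20 moved beyond it. 15 of the 56 were chosen after seeing the data, namely those that combine single-copy windows with a further choice. The alternative on soft-masked bases was not run, because the reference used here is all in capitals. No paired analysis was possible because libraries were pooled before positions were called.

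The log2 ratio of density, -0.45, was -0.76 with the higher-scoring positions only and -0.62 at 20000 bp or farther from a start. The higher-scoring positions are those from the list's median score of 14.8 upwards. The ratio was -0.15 with words that occur once only, and with single-copy windows -0.16 when matched over 3000 bp, -0.12 with a midpoint within 1500 bp, -0.19 in the interior without coding exons, -0.11 without unsequenced bases within 1 Mb and -0.11 for a CpG ratio under 1. The difference in score, -3.58, was -1.72 with the higher-scoring positions only and -2.70 in single-copy interior windows without coding exons. The difference in the share without a midpoint, 15.2 percentage points, was 22.3 with the higher-scoring positions only, 20.8 for a CpG ratio of at least 0.75 and 3.62 with words that occur once only. With single-copy windows it was 2.40 when matched over 3000 bp, 0.728 with a midpoint within 1500 bp, 3.51 in the interior without coding exons, 0.356 without unsequenced bases within 1 Mb and 0.669 for a CpG ratio under 1. The difference in median distance, 5 bp, was 20 bp with the higher-scoring positions only and 0 bp with words that occur once only. With words that occur once only, the differences in density and in the share without a midpoint thus moved beyond the SD. The difference in score, then -3.02, stayed within it. The cause of the shifts was not tested for any of these choices. The unknown depth of the list limits how far a window without a position can be read as one without nucleosomes. Windows in the blacklisted regions were not left out here, and their part in the windows without a position was not tested.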
